A study of Mus musculus with 6 samples.

Results

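RNA G-quadruplex (rG4) sites in the transcripts of ribosomal protein and translation factor genes were followed through the differentiation of mouse embryonic stem cells. A site was taken as a member when 1 of its gene symbols was that of a ribosomal protein (Rpl, Rps, Rplp, Rpsa or Rack1) or of an eIF or eEF translation factor, and pseudogenes ending in -ps were set apart. Of the 5538 sites listed in every table, 118 in 60 genes were members. They comprised 64 sites in 36 ribosomal protein genes, 52 sites in 22 translation factor genes, and 1 site each in Rps6ka3, an S6 kinase, and Eef1aknmt, a methyltransferase acting on elongation factor 1A, whose symbols also matched. The ribosomal sites lay in genes of the large subunit (44), of the stalk (3, all in Rplp0) and of the small subunit (17). The factor sites lay in genes of eIF3 (12), of the eIF4 factors (21), of an eIF4E-binding protein (1), of eIF2 and eIF2B (2), of other initiation factors (11) and of elongation factors (5). Genes were grouped by symbol, and Eif1ad was placed with the other initiation factors on its symbol alone.

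The samples came from 1 clonal line, TsixTST/+, with the strain label 129S1/CastEiJ x 129S1, the genotype label WT and no drug treatment. Every group shares these alleles, and the results describe a single clone. Day 0 cells were grown with leukemia inhibitory factor on inactivated feeder cells. Day 3 and day 7 samples were embryoid bodies made from feeder-depleted cells without the factor, in suspension up to day 3 and attached afterwards. There were 2 samples per day. The labels name no separate cultures behind them, and p-values thus reflect only how far these samples differ, which may be technical. Cells were treated with dimethyl sulfate, which methylates the guanines of an unfolded motif, and chromatin-bound polyadenylated RNA was reverse transcribed once with K+ and once with Li+. A folded motif protected in the cell can refold with K+ and stop the enzyme, whereas Li+ does not stabilise it. Both libraries of a sample share their RNA. Each day 7 sample also had a table whose name calls it in vitro, and the labels do not describe how that RNA was prepared.

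Ribosomal proteins and translation factors are among the most abundantly expressed housekeeping genes. Initiation factors of the eIF4 group bind the cap of an mRNA and unwind its leader, eIF3 holds the mRNA and the small subunit together, and elongation factors move the ribosome along the message. Many ribosomal protein genes also carry small nucleolar RNAs in their introns, and most have processed copies elsewhere in the genome. The sources used here do not give how reads that match such copies, or the opposite strand, were counted, and the values of ribosomal protein genes are uncertain to that extent. The list gives 11 member sites under the symbol of another gene as well.

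In the following sequences, given 5′ to 3′ as DNA letters, runs of 2 or more guanines are in capitals, and positions refer to GRCm38.p6 (mm10). The first set holds motifs at which a larger share of K+ reads stopped in both in vitro tables than in any in-cell library with reads there. They lie in the 3′ untranslated regions of Eef2 (chr10:81182258-81182284, plus strand), Eif4g1 (chr16:20692430-20692449, plus), Eif4a1 (chr11:69667382-69667405, minus) and Eif4h (chr5:134621478-134621499, minus), and in the coding sequences of Eif3c (chr7:126558879-126558898, minus), Eif3g (chr9:20898381-20898410, minus) and Eif3b (chr5:140419697-140419716, plus).
Eef2: GGactGGcaGGctgtGGGGtGGGcGGG
Eif4g1: gatGGcGGGtGGGGcaGGGG
Eif4a1: GGGGGGaGGGGaGGGagccaaGGG
Eif4h: GGGaGGGaatGGGGcgtGGGGG
Eif3c: GGGcGGGGagtGGGaacGGG
Eif3g: GGGccgaccaGGtGGaGGaGGaGGGagaGG
Eif3b: GGagcGGaGGaGGaGGGcGG

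The second set holds well covered coding motifs of ribosomal protein genes with a smaller difference between K+ and Li+ in vitro, in Rpl8 (chr15:76904885-76904908, plus), Rps2 (chr17:24720299-24720328, plus) and Rps3 (chr7:99480002-99480026, minus). At Rpl8, Rps2 and Rps3 too, both in vitro K+ shares exceeded those of every in-cell library, so this trait is not particular to the first set. Both in vitro K+ shares exceeded both day 7 K+ shares at 54 of the 56 members tested against day 7 cells. For Rack1 (chr11:48802318-48802347, plus) and Rpl13a (chr7:45127068-45127097, minus) only the last 30 bases of a 60-base window are shown, with the listed stop at the last base shown.
Rpl8: GGaGGagaaacctGGGGacaGGGG
Rps2: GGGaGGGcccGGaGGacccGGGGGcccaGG
Rps3: GGGGccaaGGGctgcgaGGttgtGG
Rack1: gagcgtGGccttctcctctgacaaccGGca
Rpl13a: gacagtaaagtatctGGcctttctccGGaa

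The third set holds the last 30 bases of the 3 motifs whose K+ stop counts fell between day 0 and day 7. They are the 3′ untranslated windows of Eif5a (chr11:69916857-69916886, minus) and Eif4g1 (chr16:20692512-20692541, plus) and the coding window of Rps15 (chr10:80293667-80293696, plus).
Eif5a: caaacccctgtaGGGGtGGtgagaagaGGa
Eif4g1: cagcagcagtGGcGGcagtGGcagtGGGtg
Rps15: gcccgccagaGGaGGcgcctgaaccgtGGt

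The members differed from the full list in where they lay. In the authors' annotation 30 of the 118 sites (25.4%) were non-coding, against 4.26% of all sites, and 26 of these 30 were in ribosomal protein genes. Sites in 5′ untranslated regions made up 20.3% of members and 11.5% of all sites, and those in 3′ untranslated regions 19.5% and 50.1%. Coding sites made up 28.0% of members and 24.2% of the list. By structural class, canonical motifs with runs of 3 or more guanines and short loops were 8.47% of members and 15.7% of all sites. The windows that the authors call potential quadruplex with at least 40% guanine were 19.5% against 10.3%, and potential triplex windows were 4.24% against 0.849%, that is 5 of only 47 in the list. The remaining members were bulged (40), two-quartet (23) and long-loop (17) motifs. The median member motif was 29 bases long with 57.9% guanine, against 28 bases and 61.3% over the list. Members are not independent of each other, since 38 sites overlapped another member and 33 genes had 1 site while the others had up to 5.

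Listed coverage outside ribosomal and mitochondrial RNA ran from 87479 to 1536568 reads per in-cell library, and 63.5% to 83.8% of all listed reads fell on 9 ribosomal and mitochondrial sites. Member sites held 6736 to 79702 reads per in-cell library and 13803 to 57284 in vitro. No column lists a coverage from 1 to 5, so that a listed 0 stands for at most 5 reads; 45 of the 118 member sites were listed at 0 in the K+ library of day 0 replicate 2, and 58 and 60 in the K+ library of day 3 replicate 1 and the Li+ library of day 3 replicate 2. The K+ library of day 3 replicate 1 also stood apart in its stops, with 9.62% of reads stopped over all sites outside ribosomal and mitochondrial RNA against 4.37% to 5.84% in the other in-cell K+ libraries. Among the marker genes with a site, pluripotency genes (6 of 15 listed had one) summed to 6134 to 6713 reads per 1000000 listed outside ribosomal and mitochondrial RNA on days 0 and 3 and to 2135 and 2696 on day 7. Genes of differentiating embryoid bodies (6 of 14) were at 0 on day 0, at 48.9 and 138 on day 3 and at 2142 and 2361 on day 7. Feeder genes (2 of 10) summed to 101 to 406 in every sample, and of these Col1a1 was at 0 on days 0 and 3. Of the 6 pluripotency genes, 4 were called lower in reads from day 0 to day 7 (limma-voom, adjusted p under 0.05). Across all entries tested 18.4% were called in either direction. Tdgf1 was lower without a call, and Lin28a was higher without a call (0.80 ± 0.31, log2 and SE). Lin28a held 3245 of the 5056 pluripotency reads in day 7 replicate 1. The part of these shifts in the results on days was not tested, and in such bulk RNA fewer cells of a type cannot be told apart from less RNA per cell.

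In vitro, member sites stopped the enzyme in K+ far more often than in cells. Pooled over all members, 36.7% and 39.1% of K+ reads stopped in the 2 in vitro tables against 7.01% and 5.85% of Li+ reads. Over all sites outside ribosomal and mitochondrial RNA the pooled K+ share was 47.7% in each. Overlapping sites enter the pool separately, so reads there can count more than once. In replicate 2, overlapping Eef2 sites held 4095 and 14177 of the 57284 K+ reads. In cells the pooled share was 4.06% to 6.73% in K+ and 4.30% to 5.17% in Li+ over the 6 samples, so that the ranges of the cations overlapped there. All 5538 sites of the list had the higher share in K+ in both in vitro tables, so the list had been chosen on these tables or on data like them, and the direction in vitro is no result. The median in vitro K+ share of the 71 members with 20 or more reads in each in vitro library was 36.2% and 40.7%, and that of the 3266 sites of the list with such coverage 43.0% and 44.8%.

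**Figure D1:**
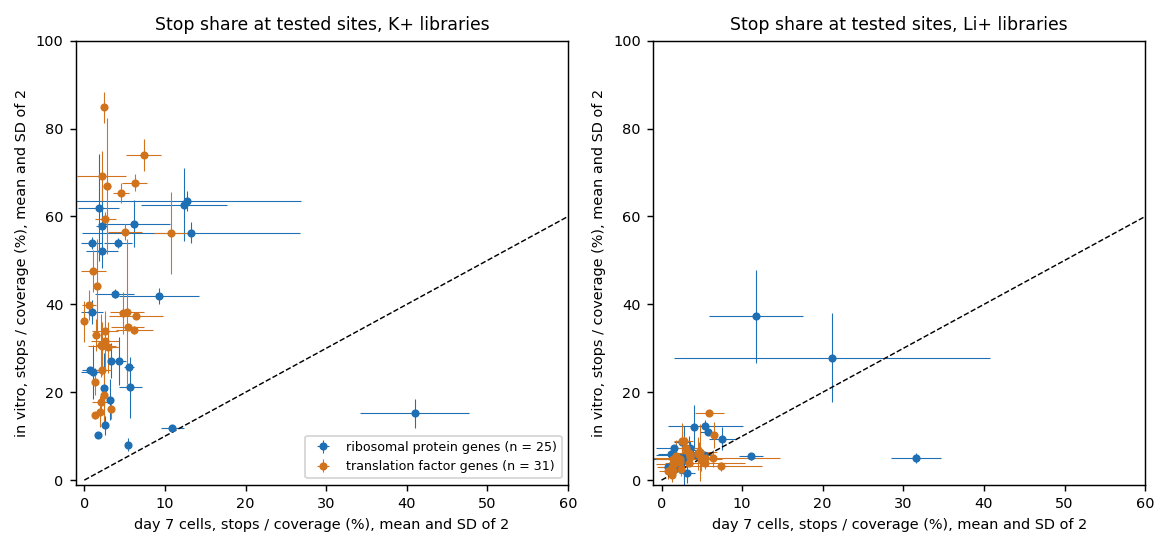
Stop share (stops over coverage, in percent) at the 56 member sites with 20 or more reads in every day 7 and in vitro library, for K+ (left) and Li+ (right). Points are means and bars the SD of 2 tables, and the dashed line marks equal shares. In K+ nearly all points lie well above the line. Among the exceptions are the Rpl13a window at the right of both panels, and Rack1 and Rpl8 near the line.

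The difference between K+ and Li+ was then set against the same difference in day 7 cells, as log2 odds of a stop, at the 56 members of 31 genes that were covered by 20 or more reads in all 8 libraries. It was larger in vitro at 44 of them (limma, adjusted p under 0.05) and smaller at none, with 78.8% of the 2648 sites tested called across the list. The member median was 3.17 log2 units and that over all tested sites 3.35. Since the list was chosen on in vitro stops, this contrast leans the same way by construction. Of the ribosomal sites 18 of 25 were called, with a median of 2.42, and of the factor sites 26 of 31, with a median of 3.42.

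All 11 eIF3 sites that could be tested were called, with a median of 4.33, against 78.8% of all sites tested. They lie in 6 genes, and those of Eif3c and some of Eif3d overlap, so they are not independent. Eif3c, which encodes a core subunit of eIF3, had a canonical coding motif at which 66.3% and 69.1% of K+ reads stopped in vitro and 2.40% and 3.81% of Li+ reads. On day 7 the K+ shares at this motif were 7.38% and 5.19% and the Li+ shares 3.74% and 10.98%. The cations were thus far apart in both in vitro tables and in opposite order in the 2 cell samples, and the contrast was 5.70 ± 0.83 (log2, SE; limma, adjusted p = 0.000524). Its 2 overlapping neighbours gave 5.61 and 5.03. Eif3g, an RNA-binding subunit, had K+ shares of 65.1% and 73.1% in vitro and 4.27% and 0% on day 7 at its coding motif, a contrast of 6.06 ± 1.14 (adjusted p = 0.00157). Eif3b, the scaffold subunit of the complex, had 71.4% and 76.5% against 8.89% and 5.81% at the coding motif printed above (4.33 ± 0.81; adjusted p = 0.00152). Eif3d gave 4.45, 3.14 and 2.75 at 3 coding sites, Eif3a 3.64, Eif3h 3.42 and the other Eif3b site 2.75.

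Among the eIF4 factors, 12 of 13 tested sites were called, with a median of 3.32. Eif4g1, the scaffold that joins the cap-binding protein to eIF3, was called at 4 sites. At its 20-base 3′ untranslated motif 55.2% and 57.7% of K+ reads stopped in vitro, against 6.55% and 3.56% on day 7. Both in vitro values were many times those in cells, with a contrast of 4.14 ± 0.49 (adjusted p = 0.000227). The 2 canonical 3′ untranslated motifs of this group had smaller fitted contrasts. Eif4a1, the helicase that unwinds mRNA leaders, had K+ shares of 62.8% and 49.7% in vitro and 12.3% and 9.24% on day 7, with Li+ shares of 15.2% and 15.3% and of 4.66% and 7.17% (1.86 ± 0.53; adjusted p = 0.0103). Eif4h, a cofactor of that helicase, had 33.5% and 34.9% in vitro and 7.80% and 4.62% on day 7, with Li+ shares of 4.82% and 4.73% and of 1.73% and 2.93% (1.78 ± 0.69; adjusted p = 0.0352). At both motifs the K+ share exceeded the Li+ share in both day 7 samples as well. Eif4g2, a relative of Eif4g1 without the cap-binding contact, gave 5.74 in its 5′ untranslated region and 3.43 in its coding sequence, Eif4b 4.18 and Eif4a2 2.05. The 2 coding sites of Eif4h gave 3.35 and 3.21.

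The elongation factor Eef2, the translocase, had the highest in vitro K+ shares of the 56 sites. At its bulged 3′ untranslated motif 82.3% and 87.3% of K+ reads stopped in vitro and 9.04% and 5.71% of Li+ reads. On day 7 the K+ shares were 2.40% and 2.46% and the Li+ shares 1.81% and 4.19%. The day 7 values of the 2 cations overlapped, while those in vitro were far apart, and the contrast was 6.33 ± 0.76 (adjusted p = 0.000228), the highest fitted value of any member. A wider window that covers the same motif gave 2.53 ± 0.78 (adjusted p = 0.0138). Of the sites grouped by symbol as other initiation factors, 1 of 5 tested was called, in the 5′ untranslated region of Eif1ad (4.27).

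Among ribosomal protein genes the called sites lay in untranslated, coding and non-coding stretches alike. The highest contrast was at Rpl22, a large subunit protein, whose 3′ untranslated window had K+ shares of 53.4% and 70.6% in vitro and 3.53% and 0% on day 7 (5.99 ± 1.28; adjusted p = 0.0029). These day 7 shares were 3 of 85 and 0 of 44 reads, and the latter allows up to 8.04% (95% exact interval). The Li+ stops were also few, 6 of 155 and 1 of 40 reads on day 7 and 2 of 59 and 0 of 22 in vitro. Rpl22 had 2 further called sites, at 3.28 and 1.54. Rps4l, a ribosomal protein S4-like gene that RefSeq lists as a transcribed pseudogene, had 54.8% and 53.3% against 5.44% and 2.93% at a bulged non-coding motif (3.96 ± 0.56; adjusted p = 0.000463). The 3 called sites of Rpl41, which encodes a very short large subunit protein, gave 4.87, 4.24 and 1.37. Rpl34 gave 4.78 and Rpl38 3.96 in their 5′ untranslated regions, Rps20 3.96 and Rpl13 3.09 at non-coding sites, and Rpl13a 2.42 in its 3′ untranslated region.

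The heavily covered coding windows of Rpl8, Rack1, Rps15, Rps2 and Rps3, and the Rps19 window annotated to both the 5′ untranslated region and the coding sequence, lay below the member median of 3.17 in this contrast. Rpl8, a large subunit protein, had the most in-cell reads of any member (52999 over the 12 libraries). Its K+ shares were 9.15% and 7.07% in vitro and 5.68% and 5.28% on day 7, with Li+ shares of 5.79% and 5.74% in vitro and 5.21% and 5.39% on day 7. All 8 values lay between 5.21% and 9.15%, and the contrast of 0.47 ± 0.49 was not called (adjusted p = 0.376). Rack1, a scaffold bound to the small subunit, had K+ shares of 11.7% and 12.03% in vitro and 11.9% and 9.90% on day 7. Its Li+ shares were 5.96% and 4.82% in vitro and 12.2% and 10.1% on day 7, so the K+ values of both settings overlapped while the Li+ values did not (1.26 ± 0.41; adjusted p = 0.018). Rps15, which sits in the head of the small subunit, gave 1.10 ± 0.52 (adjusted p = 0.0683), and Rps2, Rps3 and Rps19, also of the small subunit, gave 1.52, 2.19 and 1.70, all called.

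The Rpl13a coding window ran against the other members. On day 7, 45.8% and 36.2% of K+ reads and 33.8% and 29.4% of Li+ reads stopped there, and on day 0 the shares were 28.1% and 36.4% in K+ and 35.0% and 33.3% in Li+. In vitro only 17.6% and 12.9% of K+ reads and 5.95% and 4.33% of Li+ reads stopped. Stops at this window were therefore more frequent in cells than in vitro with either cation. The K+ against Li+ difference was still called larger in vitro (1.10 ± 0.43; adjusted p = 0.0357). At 54 of the 56 tested members both in vitro K+ shares exceeded both day 7 K+ shares, the exceptions being Rpl13a and Rack1.

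The 12 members that were not called had contrasts of 0.47 to 4.45, all positive. They were Rpl8, Rps15, both sites of Eif5a, a canonical non-coding site of Rpl13a, overlapping sites of Rpl41, Rpl38 and Rpl22, Rpl10a, a coding window of Eif4b and 2 coding sites of Eif1ad that share 1 motif. The highest of these, 4.45 ± 1.96 at Eif1ad (adjusted p = 0.0535), had no K+ stop in either day 7 sample. Of the 44 calls, 17 held under every alternative setting in which the site was tested. With a single table left out, and the lone table assumed to vary like the others, 28 of the 44 kept their call without the in-cell table of day 7 replicate 1, 24 without that of replicate 2 and 33 with each in vitro table left out in turn.

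The 5 members with the highest ratio of K+ to Li+ shares in vitro were Eif1ad, Rpl22, Eef2, Rps9 and Eif3c, and 4 of them were thinly covered in Li+. The 5′ untranslated motif of Eif1ad (chr19:5366932-5366954, plus) had K+ shares of 65.6% and 66.7%. Its Li+ stops were 2 of 61 and 0 of 22 reads, which allow shares of 0.400% to 11.4% and of up to 15.4% (95% exact Clopper-Pearson intervals). A non-coding Eef2 motif had 57.1% and 60.3% in K+ and 1 of 30 and 0 of 30 Li+ reads stopped. Rps9, a small subunit protein, had 39.4% and 40.8% in K+ and 0 of 47 and 1 of 31 in Li+ at a non-coding motif. The Eif1ad, Eef2 and Rps9 sites had too few reads in the day 7 libraries to be compared with cells. The intervals cover counting error only.

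In cells, the K+ libraries were next set against the Li+ libraries within each day. At the 25 members of 19 genes covered by 20 or more reads in all 12 in-cell libraries, none was called on day 0, day 3 or day 7, nor for the change from day 0 to day 7 (limma), and 0% of the 847 tested sites were called in each of these 4 tests. The member medians were -0.23, 0.74 and 0.05 log2 units on days 0, 3 and 7, and those over all tested sites -0.30, 0.87 and 0.24. The day 3 median came mainly from replicate 1, at 0.76 among members and 1.31 over the list, whose K+ library is the one that stood apart, against -0.06 and 0.33 in replicate 2. Without day 3 replicate 1 the lowest adjusted p of a member on day 3 was 0.954.

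**Figure D2:**
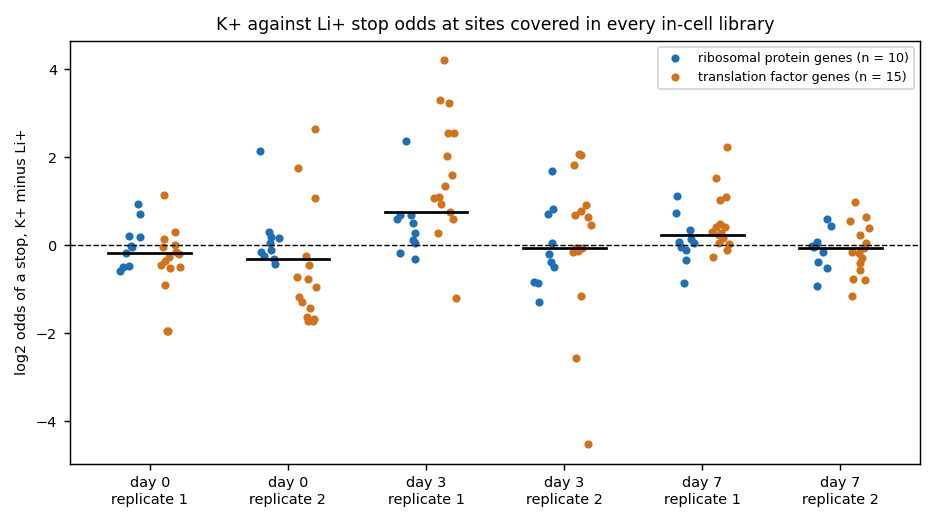
Log2 odds of a stop in K+ minus Li+ in each in-cell sample for the 25 member sites covered in every library, by gene group, with the median over both groups as a bar and 0 (no difference) dashed. Day 3 replicate 1 lies highest with a median of 0.76, and the other medians lie between -0.32 and 0.23.

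Eif4a1 and Eif4h, the canonical motifs printed above, came nearest to a difference in cells, with the Eef2 motif. Eif4a1 had K+ shares of 9.18% and 7.83% on day 0, followed by 34.3% and 8.77% on day 3 and by 12.3% and 9.24% on day 7. The Li+ shares were 11.4% and 13.0%, 5.20% and 8.51%, and 4.66% and 7.17%. The K+ value was below the Li+ value in both day 0 samples and above it in the other 4 samples, with 34.3% resting on 24 stops in 70 reads. In day 3 replicate 2 the K+ and Li+ values were close, at 15 stops in 171 reads and 4 in 47. The fitted odds were -0.53, 2.10 ± 0.64 and 1.02 on the 3 days (adjusted p on day 3 = 0.118). The day 3 value was called when the day was fitted alone (1.98; adjusted p = 0.0198) and with either day 0 sample left out (adjusted p = 0.00485 without replicate 1 and 0.00748 without replicate 2). Without day 3 replicate 1 it was -0.06 (adjusted p = 0.996), and without day 3 replicate 2 it was 3.23 (adjusted p = 0.11).

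In Eif4h too, the K+ share was below the Li+ share in both day 0 samples and above it in the other 4. Its K+ shares were 2.36% and 2.44% on day 0, followed by 11.7% and 3.62% on day 3 and by 7.80% and 4.62% on day 7, against Li+ shares of 2.76% and 8.70%, 2.15% and 1.45%, and 1.73% and 2.93%. Stops were few on day 0, at 5 of 212 and 2 of 82 K+ reads and 4 of 145 and 6 of 69 Li+ reads. The sample medians over all 847 tested sites were also negative on day 0 (-0.16 and -0.50). They were 1.31 and 0.33 on day 3 and 0.49 and -0.12 on day 7. The signs over the list were thus the same except in day 7 replicate 2. The fitted odds of Eif4h were -0.81 on day 0, 1.88 ± 0.79 on day 3 (adjusted p = 0.208) and 1.55 ± 0.58 on day 7 (adjusted p = 0.54), and the change from day 0 to day 7 was 2.36 ± 0.94 (adjusted p = 0.429). The Eef2 motif printed above had the highest day 3 value, 2.65 ± 0.88 (adjusted p = 0.13), from 14 stops in 207 K+ reads of replicate 1 and 10 in 530 of replicate 2. Without day 3 replicate 1 the day 3 values were 0.91 for Eif4h and 1.83 for Eef2. On day 7 the Eef2 motif was at -0.17.

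The ribosomal members were closer to 0 than the factor members in these fits. The median odds of the 10 ribosomal sites were -0.09, -0.03 and -0.05 on days 0, 3 and 7, and those of the 15 factor sites -0.53, 1.08 and 0.11. Rack1 stayed at 0.12, -0.02 and -0.03, Rps3 at -0.21, -0.29 and -0.23, and Rpl8 at -0.38, -0.34 and 0.05. The Rpl13a window reached 0.60 ± 0.21 on day 7 (adjusted p = 0.54). Whether the groups differ was not tested.

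The comparison of K+ stop counts between days included 16 members of 14 genes that had enough stops. These counts are scaled to the library, and they are corrected neither for Li+ stops nor for the amount of RNA. Between day 0 and day 7, 3 of the 16 were called, all lower on day 7 (limma-voom, adjusted p under 0.05), with 16.8% of the 327 tested sites called in either direction. The fitted change was negative at 14 of the 16, with a median of -0.91 log2 units against 0.09 over all tested sites. The filter was passed mainly by well stopped sites, so these figures describe the sites that passed and not the members as a whole. Between day 0 and day 3 no member was called (limma-voom), with 0.612% of all sites called. Between day 3 and day 7 none was called either, with 6.12% of all sites called.

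**Figure D3:**
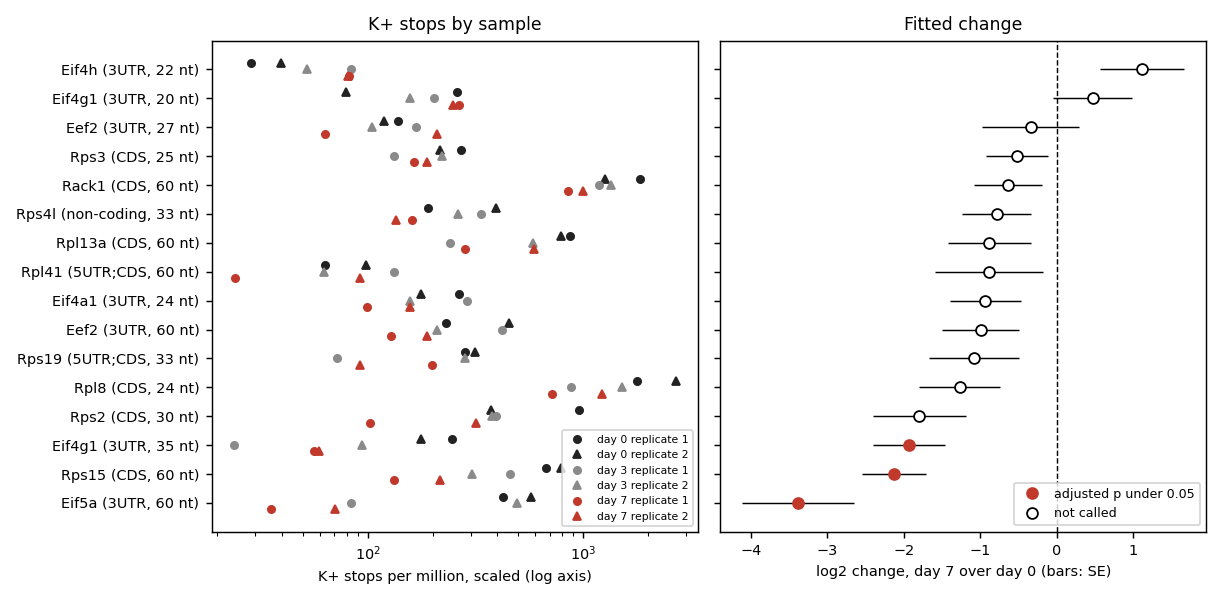
K+ stops in CPM after scaling in each in-cell sample (left, log axis) and the fitted log2 change from day 0 to day 7 with its SE (right) for the 16 member sites tested, labelled by gene, annotated region and motif length. Filled red points at the right were called, namely Eif5a, Rps15 and the 35-base Eif4g1 motif, and all 3 lie left of 0.

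Eif5a encodes the hypusine-containing factor that helps ribosomes through difficult peptide bonds. Its 3′ untranslated window had 425 and 572 K+ stops on day 0, scaled to 1000000 per library (CPM). The values were 83.9 and 493 for day 3 and 35.5 and 70.2 for day 7. The day 7 samples lay below all others, and the day 3 samples spanned most of the range. The change from day 0 to day 7 was -3.39 ± 0.73 (log2, SE; adjusted p = 0.0143). The K+ stop shares there were 3.55% and 4.02% on day 0 and 2.68% and 2.14% on day 7, and the Li+ shares 3.92% and 4.72% and 2.94% and 2.23%. K+ and Li+ were close to each other in each of these samples. Without day 0 replicate 1 the adjusted p was 0.0871 and without day 0 replicate 2 it was 0.21, with changes of -3.597 and -3.19. Between day 3 and day 7 this site was called without day 3 replicate 1 (-3.42; adjusted p = 0.0114).

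Rps15 had 672 and 789 CPM of K+ stops on day 0, 455 and 304 CPM on day 3 and 132 and 216 CPM on day 7. The groups did not overlap, and the change of -2.13 ± 0.42 from day 0 to day 7 was called (adjusted p = 0.0102). The call was lost with day 0 replicate 1 left out (adjusted p = 0.0531), with day 0 replicate 2 left out (0.0895), with scaling to total counts alone (-1.02; 0.164) and with no filter on low counts (0.0591). Its K+ shares were 5.00% and 6.06% on day 0 and 3.19% and 3.12% on day 7, and its Li+ shares 5.05% and 7.48% on day 0 and 3.99% and 4.05% on day 7. The shares of both cations were thus lower in the day 7 samples than in the day 0 samples.

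The 35-base 3′ untranslated motif of Eif4g1 had 247 and 177 CPM of K+ stops on day 0, 23.97 and 94.4 CPM on day 3 and 56.0 and 59.4 CPM on day 7. Day 3 and day 7 both lay below day 0, with a change of -1.93 ± 0.48 by day 7 (adjusted p = 0.0261). The call was lost if day 0 replicate 2 (adjusted p = 0.124), day 7 replicate 1 (0.0997) or day 7 replicate 2 (0.0503) was left out, with K+ and Li+ swapped in day 0 replicate 2 (0.21), with no filter (0.267) and with total counts alone (-0.81; 0.348), and the site was not tested without day 0 replicate 1. Its K+ shares were 2.66% and 3.98% on day 0 and 1.63% and 1.05% on day 7, and its Li+ shares 2.40% and 1.90% on day 0 and 1.36% and 1.39% on day 7, lower on day 7 with either cation. The 20-base motif of the same 3′ untranslated region had 259 and 78.9 CPM on day 0 and 265 and 248 CPM on day 7, a fitted change of 0.47 ± 0.52 (adjusted p = 0.568). The difference between these sites was not tested.

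The other members in this test were not called. Rps2 had 954 and 375 CPM of K+ stops on day 0 and 103 and 318 CPM on day 7 (-1.80 ± 0.61; adjusted p = 0.0771), and was called if day 3 replicate 1 (0.0408), day 3 replicate 2 (0.0143) or day 7 replicate 2 (0.0161) was left out. Rpl8 had 1776 and 2703 CPM on day 0 and 717 and 1220.0 CPM on day 7, without overlap, at -1.27 ± 0.53 (adjusted p = 0.146). With the K+ stops of all sites of a gene entry summed, Rps2 (-2.13; adjusted p = 0.00244) and Rpl8 (-1.34; adjusted p = 0.0313) were called lower. Eif5a and Rps15 were also called in that setting, and Eif4g1 was not. Rps19 was at -1.08, the Eef2 window at -0.997 and its bulged motif at -0.34, Eif4a1 at -0.93, Rpl41 at -0.88, Rpl13a at -0.88, Rps4l at -0.79, Rack1 at -0.64 and Rps3 at -0.52. Eif4h was the highest, at 1.12 ± 0.55 (adjusted p = 0.217), with 28.7 and 39.5 CPM on day 0 and 82.1 and 81.0 CPM on day 7. Scaling to total counts alone moved the median over all sites to 1.19 and that of the members to 0.14, called 1 member higher (Eif4h) and 1 lower (Eif5a), and turned the split over all sites from 33 higher and 22 lower to 79 and 5.

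Reads of both cations over the best covered site of each gene entry served as a measure of RNA amount. Of the 65 gene entries of members, 62 were tested, and between day 0 and day 7 there were 4 calls, 2 higher and 2 lower (limma-voom), with 18.4% of the 2389 entries tested called in either direction. The member median was -0.04 log2 units and that over all entries 0.57. In day 0 replicate 2, 908 of the 2389 entries and 14 of the 62 member entries were listed at 0. With every listed 0 set at 5 reads per cation, which brought 2643 entries and all 65 member entries into the test, the median was -0.01 over all entries and -0.26 over the members. Scaling to total counts alone moved the median over all entries to 1.01 and that of the members to 0.43, and turned the split of calls over all entries from 364 higher and 75 lower to 426 and 17. Between day 0 and day 3 no member was called, with 0.0837% of entries called. Between day 3 and day 7 there were 4 calls, 3 higher and 1 lower, with 12.6% of entries called.

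**Figure D4:**
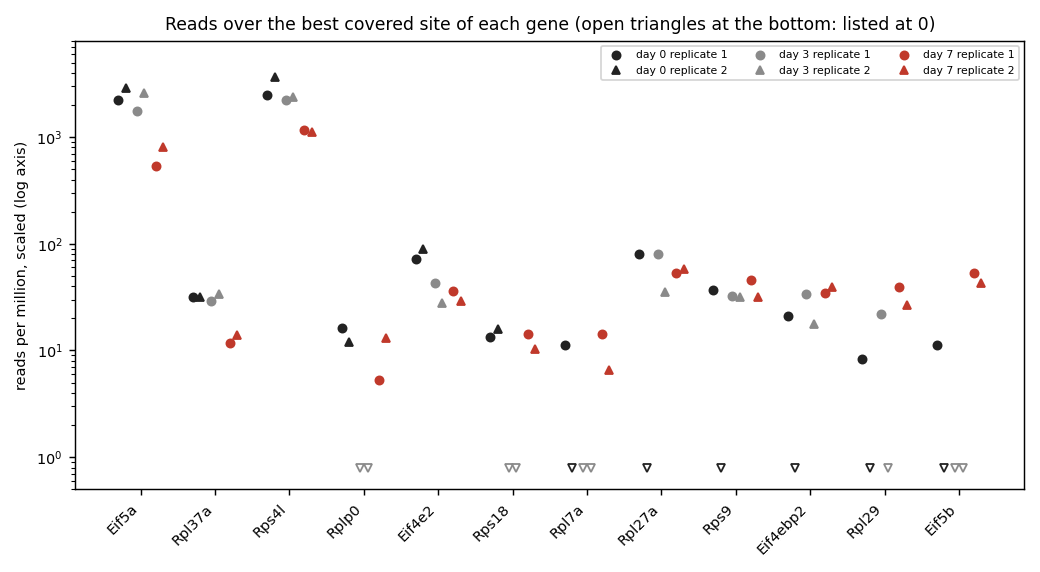
Reads in CPM after scaling (log axis) over the best covered site of the 12 member genes that were called or had the largest fitted changes, in each in-cell sample. Open triangles at the bottom mark samples listed at 0, that is at most 5 reads per cation. Eif5a and Rps4l lie far above the other 10 genes on day 0, and both are lower on day 7.

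Eif5a and Rps4l fell by day 7, with reads in every sample. Eif5a had 2227 and 2907 CPM of reads on day 0, 1756 and 2564 CPM on day 3 and 530 and 809 CPM on day 7. Day 7 lay below both other days, by -1.96 ± 0.33 against day 0 (adjusted p = 0.00658) and by -1.70 ± 0.33 against day 3 (adjusted p = 0.0128). Rps4l had 2457 and 3669 CPM on day 0, 2214 and 2360.0 CPM on day 3 and 1172 and 1105 CPM on day 7, without overlap, a change of -1.40 ± 0.28 from day 0 (adjusted p = 0.0135). Neither call from day 0 to day 7 held if day 0 replicate 2 (adjusted p = 0.0556 for Eif5a and 0.054 for Rps4l), day 7 replicate 1 (0.142 and 0.162) or day 7 replicate 2 (0.0512 and 0.0714) was left out, and Rps4l was not called with total counts alone (-0.90; 0.0545). The Eif5a call against day 3 was lost with day 3 replicate 2 (0.144), day 7 replicate 1 (0.277) or day 7 replicate 2 (0.0573) left out.

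All calls in the other direction were at entries with listed zeros. Eif5b, the GTPase that joins the ribosomal subunits, had 16 and 0 reads on day 0, followed by 0 and 0 on day 3 and by 199 and 58 on day 7. Day 7 was called above day 0 (adjusted p = 0.0153) and above day 3 (adjusted p = 0.00495), where it was at least 3.11-fold higher when each listed 0 is taken as 5 reads per cation. With all listed zeros set so, the changes were 1.49 and 1.80 and both stayed called (adjusted p = 0.0302 and 0.041). The first was lost with day 0 replicate 2 (0.339), day 7 replicate 1 (0.413) or day 7 replicate 2 (0.192) left out and with the reads of all its sites summed (0.15). The second was lost with day 3 replicate 2 (0.0604), day 7 replicate 1 (0.36) or day 7 replicate 2 (0.118) left out.

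Rpl29, a large subunit protein, had 12 and 0 reads on day 0, followed by 20 and 0 on day 3 and by 148 and 36 on day 7, called against day 0 (adjusted p = 0.0464). It was not called with listed zeros set at 5 reads per cation (1.16; adjusted p = 0.119). The call was also lost with day 0 replicate 2 (0.712), day 3 replicate 2 (0.0584), day 7 replicate 1 (0.484) or day 7 replicate 2 (0.26) left out, with no filter (0.0715), with sites summed (0.0562) and with the replicate number as a block (0.164). Rps18, a small subunit protein, had 19 and 8 reads on day 0, followed by 0 and 0 on day 3 and by 54 and 14 on day 7. Rpl7a, of the large subunit, had 16 and 0, 0 and 0, and 54 and 9. Both were called higher on day 7 than on day 3 (adjusted p = 0.00801 and 0.043), and with listed zeros set at 5 reads the changes turned to -0.14 for each and were not called. The Rps18 call was lost with day 3 replicate 2 (0.0612), day 7 replicate 1 (0.653) or day 7 replicate 2 (0.206) left out. The Rpl7a call was lost with day 3 replicate 1 (0.118), day 3 replicate 2 (0.215) or day 7 replicate 2 (0.239) left out, with sites summed (0.0654) and with the replicate block (0.0553).

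The other entries with the largest fitted changes were not called. On the lower side they were Rpl37a, with 31.5 and 31.8 CPM on day 0 and 11.7 and 13.96 CPM on day 7 (-1.40 ± 0.61; adjusted p = 0.124), Rplp0 (-1.21) and Eif4e2, a relative of the cap-binding protein (-1.15 ± 0.36; adjusted p = 0.0635). On the higher side they were Eif4ebp2, which holds the cap-binding protein inactive (3.78 ± 1.11; adjusted p = 0.0523), Rps9 (3.599) and Rpl27a (3.06), each with 1 day 0 sample listed at 0. Among the genes with called stops, the reads of Rps15 were at 2550.0 and 2744 CPM on day 0 and 1559 and 1633 CPM on day 7 (-0.73 ± 0.25), and those of Eif4g1 at 2076 and 1459 CPM and at 1575 and 1584 CPM (-0.15 ± 0.27), neither called. With the reads of all sites of an entry summed, Rps15 was called lower (-0.81; limma-voom, adjusted p = 0.0447). With listed zeros set at 5 reads per cation 12.2% of 2643 entries were called from day 0 to day 7, 207 higher and 116 lower. Among them were 6 members, 1 higher (Eif5b) and 5 lower (Eif5a, Rps4l, Rpl37a, Eif4e2 and Rpl8).

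As a share of all listed reads outside ribosomal and mitochondrial RNA, member sites held less on day 7. In K+ the share was 7.86% and 7.56% on day 0, followed by 8.17% and 7.15% on day 3 and by 5.28% and 5.99% on day 7. In Li+ it was 7.82% and 7.64%, 7.08% and 7.12%, and 5.19% and 5.64%. Every day 7 library lay below every library of the earlier days. The difference from day 0 was -2.08 percentage points in K+ and -2.31 in Li+, with an exact two-sided permutation p of 0.333 for each, the smallest that 2 against 2 samples can give. Ribosomal sites went from 4.67% ± 0.26 to 3.33% ± 0.24 in K+ (SD, n = 2) and factor sites from 3.04% ± 0.051 to 2.31% ± 0.27. As a share of all listed reads, ribosomal and mitochondrial RNA included, members were at 1.76% and 1.23% on day 0 and 1.72% and 1.63% on day 7 in K+, so that the groups overlapped and the mean was higher on day 7 (1.67% ± 0.062 against 1.49% ± 0.38). The first share moves with all other listed genes, among them those of differentiating embryoid bodies that were at 0 on day 0.

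**Figure D5:**
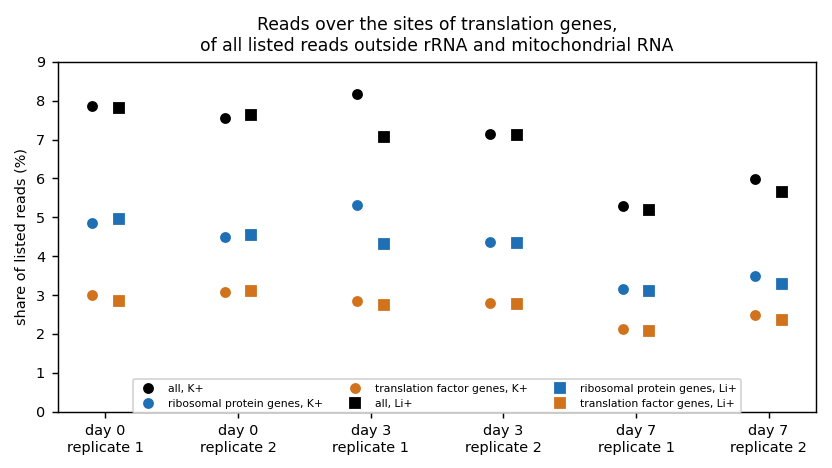
Reads over member sites as a percentage of all listed reads outside ribosomal and mitochondrial RNA, in each in-cell sample for K+ (circles) and Li+ (squares), for all members and for both gene groups. The day 7 samples lie at 5.19% to 5.99% for all members and the earlier samples at 7.08% to 8.17%.

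Other genes of translation, from lists of mRNA-binding, termination, mTORC1, ribosome biogenesis and tRNA synthetase genes, were looked up in the same fits. Of 82 such genes 40 had a site. In the reads test 2 of these 40 were higher on day 7, Ddit4, an inhibitor of mTORC1 (2.28 ± 0.46; adjusted p = 0.0143), and Iars, a tRNA synthetase listed at 0 on days 0 and 3, and 1 was lower, Bop1, a ribosome assembly factor (-1.31 ± 0.26; adjusted p = 0.0144). Over the whole list 18.4% of entries were called in that reads test, in either direction. In the stop test 3 of 16 sites were higher on day 7, all from the mTORC1 list, of which 6 sites were tested. A ribosome biogenesis site was lower, and over the whole list 16.8% of sites were called in that test. In the in vitro contrast 52 of 67 sites were called, all larger in vitro, against 78.8% of sites across the whole list.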

How the data were processed

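The deposited tables, per the file headers, give whole-number counts of reads that stop at a site and of reads that cover it, in K+ and in Li+, which are raw and in no normalized unit. The submitters' processing notes name cutadapt, STAR and SAMtools, without versions, and the builds GRCm38.p6 and mm10; for multi-mapping reads and strand, the rules used are not given in these sources. Motif sequences are those of the deposited tables, and all 60 member symbols were found in the RefSeq table.

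Samples were grouped by the day in their labels. The analysis used R 4.3.3 and limma 3.58.1. Because each record runs over 2 lines and cannot be listed as a plain table, limma-voom took the place of a count test planned for these counts, with its samples and terms kept: all 6 in-cell samples, 1 group per day. K+ stops entered with 10 or more stops at the median library size in 2 or more libraries and 15 in all, after trimmed-mean scaling. Log2 odds of a stop, K+ minus Li+, used a pseudocount of 0.5, a minimum of 20 reads in each library and weights from beta-binomial variance, in limma. Reads were summed over cations at the best covered site of each gene entry. P-values were adjusted by the Benjamini-Hochberg method over all sites or entries, and those quoted as adjusted come from these limma fits. Single shares have 95% Clopper-Pearson intervals, for counting error only. The steps were tested on simulated data.

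Members and lists were chosen with earlier results of these data known. Named with values are all sites of the stop test, every called site or gene, the 5 sites with most reads, the 5 with the highest in vitro K+ to Li+ ratio, and the 10 genes with the largest fitted change in reads; other members appear by counts or briefly. Alternatives were median-ratio and total-count scaling, no filter, other coverage minimums and pseudocounts, no weights, summed sites, days fitted alone, K+ and Li+ swapped in day 0 replicate 2, the replicate number as a block, each library left out, and, chosen after seeing the data, listed zeros at 5 reads and single in vitro tables left out. Ribosomal and mitochondrial sites (9) and the pseudogene Rpl3-ps1 were left out of the members. The values of 1 member gene are not reported here.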

Additional observations from a re-analysis of the deposited data

Results flagged for a closer look

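The site of Rpl3-ps1, a processed pseudogene of the large subunit gene Rpl3, was counted in no comparison of members. It had 1280 reads of both cations over the 6 in-cell samples (chrX:13202544-13202603, GRCm38.p6). It drew attention as signal that the counts of members left out. Like every listed site, it was open to the fits over the whole list. In cells 18.9% to 36.4% of K+ reads and 25.4% to 38.7% of Li+ reads stopped there, and the ranges overlapped. In vitro 29.9% and 24.5% of K+ reads and 10.8% and 8.09% of Li+ reads stopped. Reads of Rpl3 itself and of this copy were not told apart here. Groups of 2 samples are too small for a test of single outlying samples.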

How the results depend on the processing

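Among the in-cell tests, leaving out 1 sample in turn gave 0 to 4 member calls for K+ stops from day 0 to day 7 (3 with all samples), 0 to 1 from day 3 to day 7 (0) and 0 in each case from day 0 to day 3. For reads it gave 0 to 15 from day 0 to day 7 (4), 0 to 4 from day 0 to day 3 (0) and 0 to 10 from day 3 to day 7 (4), the highest counts without day 0 replicate 1 and day 3 replicate 1. For K+ against Li+ odds it gave 0 to 1 on day 3 and 0 elsewhere, and for the in vitro contrast, with single tables left out, 30 to 36 (44). With no filter 1 of 110 members was called for stops from day 0 to day 7, with sites summed 1 from day 3 to day 7 (Eif5a, -1.84), with day 3 fitted alone 1 for odds (Eif4a1), and with listed zeros at 5 reads 2 for reads from day 3 to day 7. There Rpl7a and Rps18 turned from 4.13 and 4.24 to -0.14 each, because listed zeros on day 3 made the difference; the other 114 single results that lost their call and 32 that gained one kept their direction, and 1996 stayed on their side of the threshold. Over the whole list, calls for stops from day 0 to day 7 numbered 55, against 154 of 5037 sites with no filter, 84 with total counts and 14 to 93 with 1 sample left out. For reads they numbered 439, against 290 with the replicate block and 5 to 919 with 1 sample left out. From day 3 to day 7 they numbered 20 for stops and 302 for reads, against 134 with no filter and 168 with listed zeros at 5 reads. For odds on day 3, 43 sites were called with the day fitted alone, against 0.

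Samples with the same replicate number did not deviate together throughout (correlations -0.07 to 0.05 for stops, -0.04 to 0.28 for reads, -0.04 to 0.11 for odds and -0.03 in vitro), so the number is taken as a name only. With it as a replicate block, 3 members were called for stops from day 0 to day 7, 3 each for reads from day 0 and from day 3 to day 7, 42 in vitro and 0 for the change of odds. Leaving out a day 7 sample with both of its tables from the in vitro contrast leaves 1 table against 1 and was not run. Both depth and the 2 samples per day limit the in-cell tests: 25 of 118 members had 20 or more reads in every in-cell library.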
